A study of Trichechus manatus latirostris with 11 samples.

Results

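AP-1 is a family of transcription factors that bind DNA as pairs through a basic region and a leucine zipper. FOS proteins pair with JUN proteins, JUN proteins also pair with one another, and BATF proteins pair with JUN proteins and bind together with the interferon regulatory factors IRF4 and IRF8 in lymphocytes and dendritic cells. Many FOS and JUN genes are immediate early genes, transcribed within minutes of a stimulus without new protein synthesis, and are induced in leukocytes by growth factors, cytokines and bacterial products. The RNA of these genes was described in white blood cells (buffy coat) of adult Florida manatees. Of 10 AP-1 symbols (FOS, FOSB, FOSL1, FOSL2, JUN, JUNB, JUND, BATF, BATF3 and ATF3), 9 were found among the 15298 transcript records of the table, by the RefSeq symbol of each record. JUND has no row in the table as analysed here. A symbol was matched to 65.9% of the records, so any gene said below to have no row may stand among the records without a symbol.

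The red tide group held 4 manatees from waters with a bloom of the brevetoxin-producing alga, which were under care at the Lowry Park Zoo in Tampa for red tide illness; some were sampled on arrival and others after treatment had begun. The control group held 7 manatees: 2 from health assessments in Brevard County on the Indian River Lagoon, 4 from health assessments at Crystal River, and 1 that was recovering from pneumonia at the same zoo. All libraries were made after depletion of ribosomal and globin RNA. Exposure, illness, treatment, place, sampling date and sample storage differ between the groups and cannot be told apart.

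The table gives each record a mean over 4 libraries and a mean over 7 libraries, in counts divided by the size factor of each library (normalized counts). Its columns do not name the groups; their sizes are those of the red tide group and the control group, and the means are called the 4-library mean and the 7-library mean. The sources used here differ on which mean belongs to which group of animals: the sizes and the order of the group names in the table's title point one way, and the direction given to some genes in the study's text points the other. All values are therefore given by the number of libraries, and no difference is ascribed to red tide or control animals. Each read adds a fixed amount to its group mean, and for weakly expressed genes only 1 combination of whole reads gives the deposited mean, so the values of single libraries were recovered for these genes. The size factors, a measure of the relative level of counts in a library, were 1.56, 1.03, 0.620 and 0.372 in the 4 libraries. In the 7 libraries they ran from 0.702 to 1.73, with a median of 1.17. Libraries are named by size factor, since recovered values cannot be tied to a single animal. Where the values of single libraries were not recovered, the spread between animals is unknown and the group means are a description.

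Of the 9 AP-1 genes, 7 were at least 2-fold higher in the 4-library mean, against 23.9% of all rows. With FOSL1 and BATF3 left out for an overall mean under 10, 6 of 7 genes were past 2-fold in that direction. No share of all rows was computed with that filter. BATF alone was at least 2-fold higher in the 7-library mean, against 10.4% of all rows, and BATF3 lay within 2-fold. The median log2 ratio (4-library mean over 7-library mean) was 2.17 for the 9 genes and 0.14 for all rows, and after subtraction of this 0.14 the same 7 genes and BATF were past 2-fold. The plot of group means shows both means of each gene.

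**Figure D1:**
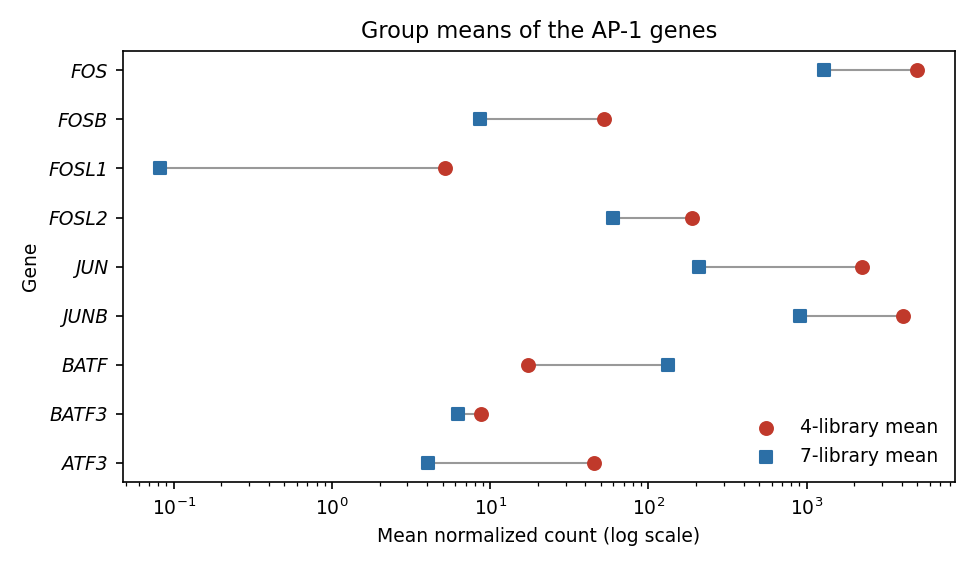
Mean normalized count (log axis) of each AP-1 gene with a row, as the 4-library mean (circles) and the 7-library mean (squares); lines join the means of 1 gene and no spread is drawn. FOS, FOSB, FOSL1, FOSL2, JUN, JUNB and ATF3 are higher in the 4-library mean, BATF is higher in the 7-library mean (134 against 17.4), and the BATF3 means are close (8.72 and 6.25).

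Among the FOS proteins, FOS, the founding member and a strong activator when paired with JUN, had a 4-library mean of 4972 and a 7-library mean of 1277 normalized counts, a log2 ratio of 1.96. FOSL2, also called FRA2, which lacks the activation domain of FOS, had means of 188 and 59.9, a log2 ratio of 1.65. The FOS mean was too high for any search of reads. For FOSL2, 13 combinations of reads gave the 4-library mean, and in 4 of these all 4 libraries lay above the 7-library mean, so whether the libraries of the group moved together was not determined.

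FOSB, a FOS protein known for its short splice form in neurons, had 87.2, 67.2, 11.3 and 43.0 normalized counts in the 4 libraries in order of falling size factor (52.2 ± 32.7, SD, n = 4), from 136, 69, 7 and 16 reads. All 4 lay above the 7-library mean of 8.67, with the library of size factor 0.620 close to it and the others far above. The log2 ratio was 2.59. The 7-library mean of FOSB is given by 3 combinations of reads. In each of these, 3 of the 4 libraries were above the highest of the 7, and the groups overlapped through the library of size factor 0.620. The exact two-sided permutation p ran from 0.0182 to 0.0242 over the 3 combinations, a range computed after the data had been seen and not adjusted. The search of reads reaches higher means in the group of 4 than in the group of 7, so genes higher in the 4 enter more readily. The p takes no account of this, and no conclusion is drawn from it.

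FOSL1, also called FRA1, a FOS protein often induced later than FOS, had 2.57, 1.95, 0 and 16.1 normalized counts in the 4 libraries (5.16 ± 7.40, SD, n = 4), from 12 reads in all. The 7 libraries held 1 read together, and 6 of them were at 0. Most of the signal came from the library of size factor 0.372, and the groups overlapped through the library at 0. The ratio of the means was 62.6, with a 95% Poisson interval of 11.2 to 2471 from the single read. This interval covers only the counting error of that read, and the 4-library mean was held fixed. On the log2 scale this ratio is 5.97, and a pseudocount of 1 lowers it to 2.51. The exact two-sided permutation p was 0.0485, where the smallest possible is 0.00606. The adjusted p was 0.326 over the 4440 rows with reads of all 11 libraries, so FOSL1 did not pass after adjustment. Without the library of size factor 0.372 the log2 ratio went from 5.97 to 4.19 and the exact p to 0.133. The exact p was also 0.133 without the library of size factor 1.56 or that of 1.03, and 0.0667 without any 1 of the 7 libraries. Without the library of size factor 0.620, which was at 0, the exact p was 0.0167, the smallest possible for 3 against 7.

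Among the JUN proteins, JUN, the central partner of the FOS proteins, had a 4-library mean of 2228 and a 7-library mean of 210 normalized counts, a log2 ratio of 3.41. JUNB, a JUN protein with weaker activity that is abundant in myeloid cells and T cells, had means of 4064 and 903, a log2 ratio of 2.17. Both genes were higher in the 4-library mean, by 10.6-fold for JUN and 4.50-fold for JUNB. Their means were too high for the reads of single libraries to be recovered, so neither difference could be set against the spread between animals.

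BATF, which lacks an activation domain and is needed for Th17 and follicular helper T cells and for antibody class switching in B cells, went the other way. It had 18.6, 22.4, 1.61 and 26.9 normalized counts in the 4 libraries (17.4 ± 11.04, SD, n = 4), from 29, 23, 1 and 10 reads. The 7-library mean was 134, a log2 ratio of -2.94, and 0.471% of all rows had a lower ratio. All 4 libraries were below the 7-library mean, as in 17.3% of the 9632 rows with recovered values in the group of 4. These are rows with a 4-library mean of at most 80, so rows high in the group of 4 are left out, which bears on any share over them in both directions. The library of size factor 0.620 was lowest, with a single read, and the other libraries lay close together. Whether the groups overlap is not known, because the 7-library mean does not show how its signal is spread over the 7 libraries. The log2 ratio ran from -3.24 to -2.56 when each of the 4 libraries was left out.

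BATF3, which is needed for the dendritic cells that present antigen to cytotoxic T cells, had 8.98, 19.5, 6.45 and 0 normalized counts in the 4 libraries (8.72 ± 8.10, SD, n = 4). In the 7 libraries it ran from 1.42 to 9.25 with a median of 7.68. The library of size factor 1.03 was above all 7, the library of size factor 0.372 was below all 7, and the others lay among them. The log2 ratio of 0.48 became -0.28 without the library of size factor 1.03. The exact two-sided permutation p was 0.564 (adjusted p = 0.863 over 4613 rows), with a search limit for the 7-library mean that was raised after the data had been seen, since the first limit left out BATF3. The difference was smaller than the spread within the group of 4. The 2 BATF proteins thus had different patterns, and the difference between them was not tested.

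ATF3, a stress-induced factor that pairs with JUN proteins and represses many inflammatory genes, had 37.8, 21.4, 24.2 and 96.8 normalized counts in the 4 libraries (45.1 ± 35.3, SD, n = 4), from 59, 22, 15 and 36 reads. In the 7 libraries it ran from 0 to 11.1 with a median of 2.56, from 36 reads in all. Each of the 4 was above each of the 7, and the library of size factor 0.372 stood highest. Such a separation in this direction was found in 2.79% of the 4440 rows tested (124 rows), and the opposite one in 3 rows. Rows could be tested only with a 7-library mean of at most 6, while the 4-library mean could reach 80. Rows higher in the group of 4 thus entered far more readily. A gene low in the 4 and high in the 7, such as BATF, could not enter. The exact permutation p takes no account of this choice of rows, so here it is a description only. The log2 ratio was 3.47 and the exact two-sided permutation p was 0.00606, the smallest that 330 ways of choosing 4 of 11 libraries can give. The adjusted p was 0.212. After adjustment 0 of the 4440 rows were under 0.05, and 14.9% of them (660 rows, 634 of these higher in the group of 4) had an unadjusted exact permutation p under 0.05. Without the library of size factor 0.372 the log2 ratio was 2.77, and the exact p was 0.0167, the smallest possible for 3 against 7.

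**Figure D2:**
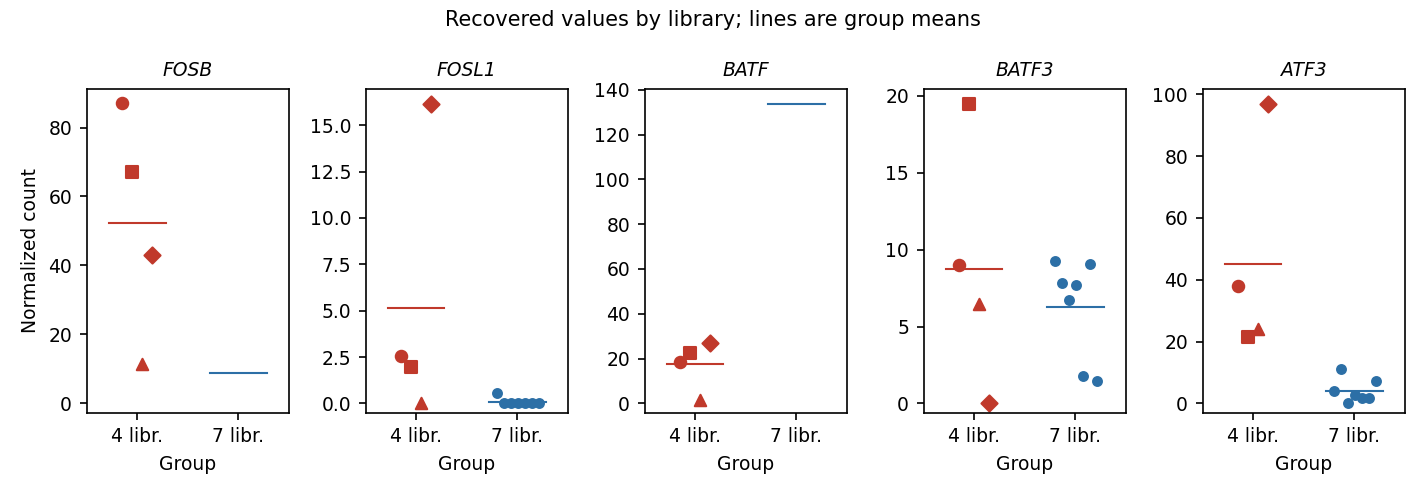
Normalized count in each library for the 5 AP-1 genes with recovered values, with the group of 4 in red (circle, square, triangle and diamond for size factors 1.56, 1.03, 0.620 and 0.372) and the group of 7 in blue; horizontal lines are group means, and each panel has its own axis. For FOSB and BATF only the 7-library mean is known. ATF3 separates the groups, and BATF in all 4 libraries lies under the line of the 7-library mean at 134.

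Of the 5 genes with recovered values in the group of 4, FOSB and ATF3 had all 4 libraries above the 7-library mean, as did 10.1% of the 9632 rows, and BATF had all 4 below. For 0 of the 5 was the lowest of the 4 libraries above 7 times the 7-library mean, the value past which the groups cannot overlap whatever the spread of the 7, which held for 0.498% of rows. The libraries did not rank alike in every gene. The library of size factor 0.620 was lowest for FOSB, FOSL1 and BATF, the library of size factor 0.372 was highest for FOSL1, BATF and ATF3, and the library of size factor 1.56 was highest for FOSB.

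In the RefSeq gene order FOS and BATF lie close together, with JDP2, which codes for another dimer partner of JUN, and a small nuclear RNA gene between them. JDP2 has no row in the table as analysed here. FOS and BATF differed in opposite directions, and TMED10, on the other side of FOS, had means of 965 and 903 normalized counts. BATF3 and ATF3 are direct neighbours, with log2 ratios of 0.48 and 3.47. The next genes outward were NSL1 at -0.92 and GARIN4 at 1.81, the latter from means of 3.24 and 0.924 normalized counts.

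The genes whose values over the 4 libraries and the 7-library mean were nearest to each member were sought among 2965 other rows, by the root mean square difference of centred log2 values. For BATF the nearest were RBBP9 (0.467), GPR15 (0.550) and TST (0.672), against a median of 1.88 over all rows compared. GPR15, a homing receptor of T cells, had 12.8, 20.4, 0 and 8.07 normalized counts in the 4 libraries beside a 7-library mean of 71.2. Like BATF, it was lowest in the library of size factor 0.620. For FOSB the nearest were ZNF593 (0.438), GINS2 (0.454) and RPS18 (0.481), against a median of 1.55. For ATF3 they were RNF122 (0.468), ACKR3 (0.486) and SORCS3 (0.533), against a median of 1.61. These likenesses rest on 5 values each.

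Other leucine zipper factors, among them partners of AP-1 proteins, were past 2-fold about as often as all rows were (23.9% and 10.4%). Of 28 rows for 23 of 31 symbols, 7 were at least 2-fold higher in the 4-library mean and 4 in the 7-library mean, and the median log2 ratio was -0.08. Among rows with a mean of at least 10, the highest were CREM, a cAMP-responsive factor (3.06; a weaker record of it was at 4.64), and CEBPG (1.70), and the lowest were CEBPE, a factor of late granulocyte maturation (-4.01), and a record of CREB1 (-0.98). CEBPE had 3.21, 5.84, 9.67 and 2.69 normalized counts in the 4 libraries and a 7-library mean of 86.4, so all 4 were below it.

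The kinases and promoter factors that act on FOS and JUN genes had a median log2 ratio of -0.02, with 2 of 24 rows at least 2-fold higher in the 4-library mean (23.9% of all rows) and 4 in the 7-library mean (10.4% of all rows). SRF, which binds the serum response element of the FOS promoter, had means of 139 and 108 normalized counts, a log2 ratio of 0.36. Its coactivator MRTFA (-1.95) was lowest, and MAP2K3 (0.97) and MAPK3 (0.94) were highest among rows with a mean of at least 10.

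Other immediate early genes had a median log2 ratio of 2.50 (1.57 with a pseudocount of 1), and 6 of 8 rows were at least 2-fold higher in the 4-library mean, against 23.9% of all rows. Among rows with a mean of at least 10, the nuclear receptor NR4A2 (3.62) and the antiproliferative gene BTG2 (2.98) were highest, and DUSP1, a phosphatase of MAP kinases (0.83), and ZFP36, which destabilizes cytokine mRNA (1.26), were lowest. ZFP36 had 46.8, 34.1, 72.5 and 51.1 normalized counts in the 4 libraries, all above its 7-library mean of 21.3.

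Textbook AP-1 target genes had a median log2 ratio of 1.37 over 13 rows, of which 7 were at least 2-fold higher in the 4-library mean (23.9% of all rows) and 2 in the 7-library mean (10.4% of all rows). The median was 2.96 among rows with a mean of at least 10. IL6, an inflammatory cytokine, had means of 597 and 0.941 normalized counts (log2 ratio 9.31). MMP1, a collagenase, had 12.2, 34.1, 127 and 10.8 normalized counts in the 4 libraries beside a 7-library mean of 0.222 (7.69). MMP1 was highest in the library of size factor 0.620, where FOSB was lowest, and its log2 ratio was 6.42 without that library. MMP9, a gelatinase stored in neutrophil granules, was lowest of the list (-3.32), with 26.9, 87.6, 116 and 75.3 against a 7-library mean of 762. HMOX1 was at 0.50.

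The partners and dependent genes of BATF were few, and their counts past 2-fold lay near the shares of all rows (23.9% and 10.4%). Of 9 rows, 3 were at least 2-fold higher in the 4-library mean and 1 in the 7-library mean, and the median log2 ratio was 0.75. IRF4 had means of 324 and 172 normalized counts (0.91), and IRF8 had 715 and 629 (0.18). IL10, an anti-inflammatory cytokine, had 58.4, 40.9, 49.97 and 21.5 in the 4 libraries, all above the 7-library mean of 2.42 (4.14), and CTLA4, an inhibitory T cell receptor, was at 1.34. BCL6, the factor of follicular helper T cells and germinal centre B cells, had 3.21, 0, 14.5 and 2.69 against a 7-library mean of 36.2 (-2.83, and -4.20 without the library of size factor 0.620), and a record of PRDM1 was at -0.71.

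**Figure D3:**
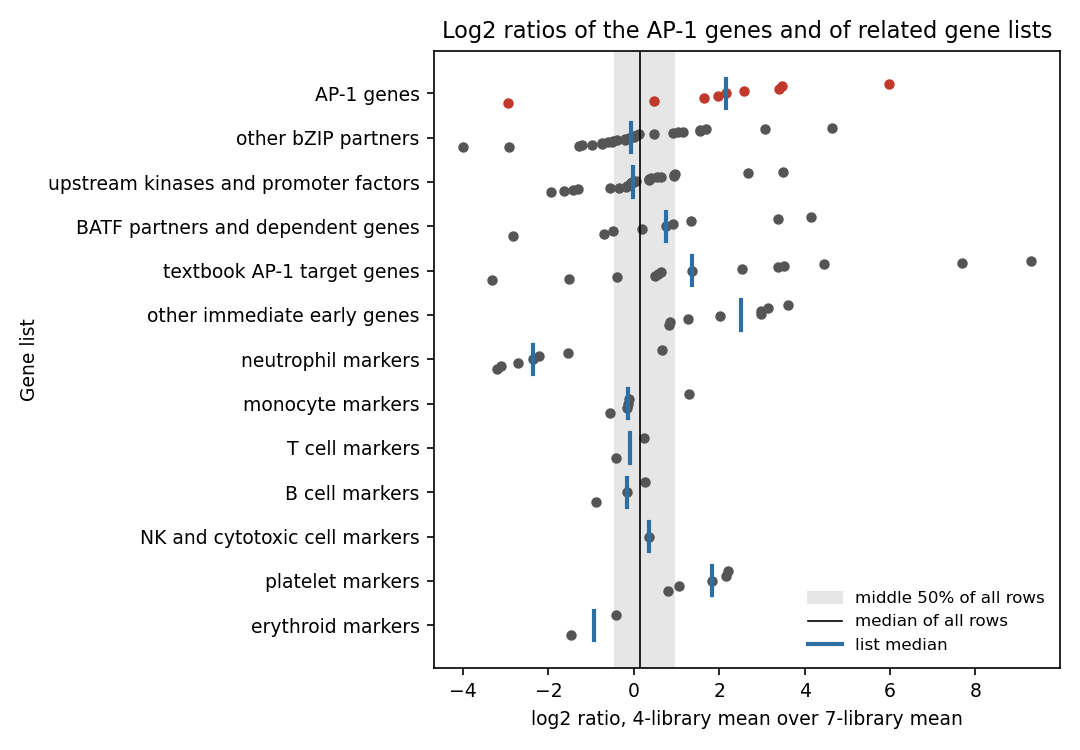
Log2 ratio between the group means (4 libraries over 7) for each record (points) of the AP-1 genes and of related gene lists and cell type markers, with each list's median (blue bar), the median of all rows (black line, 0.14) and the middle 50% of all rows (grey, -0.44 to 0.94). The AP-1 genes other than BATF and BATF3 lie right of the grey band, as do most other immediate early genes, and most neutrophil markers lie left of it.

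Cell type markers differed between the groups beside these genes. In bulk RNA, fewer cells of a type and less RNA per cell cannot be told apart. Of 7 neutrophil markers with a row, out of 8, 6 were at least 2-fold higher in the 7-library mean, against 10.4% of all rows. The median log2 ratio of these markers was -2.36. Their summed level was 2774 in the 4-library mean and 12183 in the 7-library mean, with S100A9 the most abundant, and CXCR2 (-3.19), CXCR1 (-3.12), MMP8 (-1.54) and FPR1 (0.66) at the ends of the list. S100A12 has no row. CXCR2, a chemokine receptor of neutrophils, had 12.8, 37.97, 168 and 43.0 normalized counts in the 4 libraries against a 7-library mean of 598, and CXCR1 had 9.62, 33.1, 122 and 10.8 against 383. Both receptors were highest in the library of size factor 0.620, where BATF and FOSB were lowest, and without it their log2 ratios were -4.26 for CXCR2 and -4.43 for CXCR1.

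All 5 platelet markers with a row, out of 7, were higher in the 4-library mean, 4 of them at least 2-fold, against 23.9% of all rows. The median log2 ratio of these markers was 1.82. Their summed level was 15250 in the 4-library mean and 4419 in the 7-library mean, with TUBB1 (2.17) the most abundant, ITGB3 at 2.21, ITGA2B at 1.06 and GP1BA at 0.81. PPBP and PF4 have no row. GP9, a subunit of the platelet receptor for von Willebrand factor, had 48.1, 45.8, 152 and 18.8 in the 4 libraries against a 7-library mean of 18.6, and was highest in the library of size factor 0.620. GP1BA, another subunit of that receptor, had 24.4, 44.8, 179 and 40.4 against 41.1, and without that library its log2 ratio turned to -0.17, while that of GP9 went from 1.82 to 1.01.

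**Figure D4:**
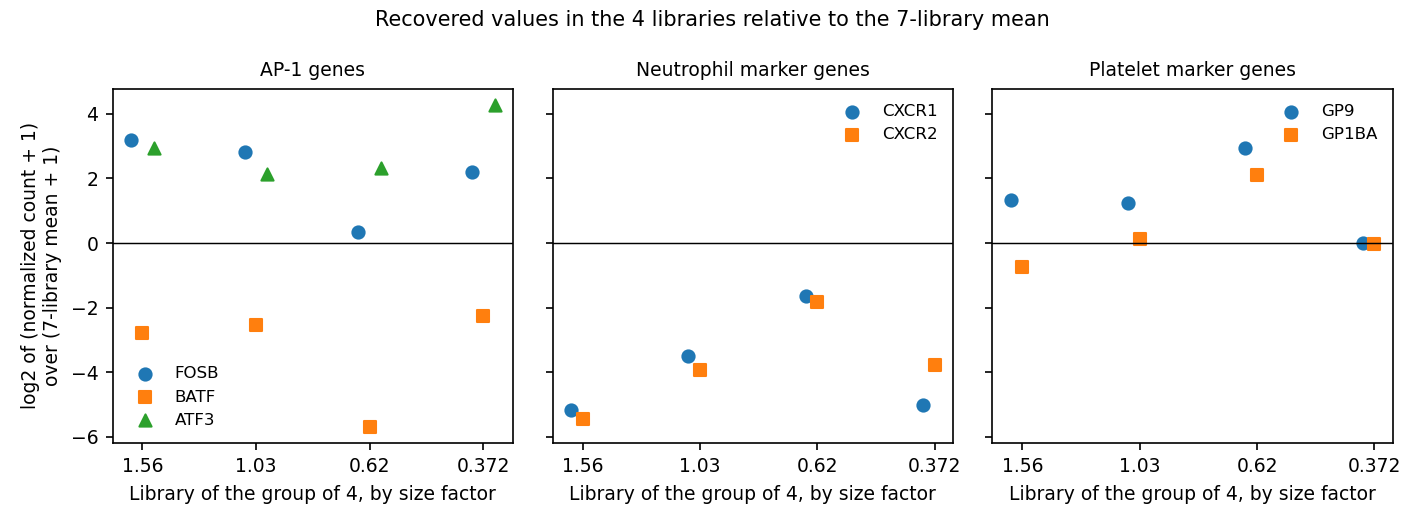
Log2 of the normalized count plus 1 in each of the 4 libraries over the 7-library mean plus 1, for 3 AP-1 genes, 2 neutrophil markers and 2 platelet markers; the horizontal line marks the 7-library mean and libraries are named by size factor. The library of size factor 0.620 has the lowest FOSB and BATF and the highest values of all 4 markers.

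Most lymphocyte and monocyte markers with a row lay within 2-fold, as did most of all rows. Of all rows, 23.9% were at least 2-fold higher in the 4-library mean and 10.4% in the 7-library mean. The summed level of 3 B cell markers with a row, out of 7, was 770 in the 4-library mean and 771 in the 7-library mean, with MS4A1 (-0.17) the most abundant, BLK at 0.27 and PAX5 at -0.88, and CD79A and CD79B without a row. Only CD28 (0.24, the more abundant) and LCK (-0.42) of 8 T cell markers had a row, with summed levels of 240 and 214, and the CD3 genes had none. The 4 monocyte markers with a row, out of 6, had summed levels of 2028 and 2664 with LYZ (-0.57) the most abundant, CD68 at -0.11 and records of VCAN at 1.29 and -0.16, and CD14 had no row. Of 7 markers of NK and cytotoxic cells only PRF1 had a row, at 0.36 (-0.47 without the library of size factor 1.56), with means of 6.95 and 5.41. The erythroid markers ALAS2 (-1.48, the more abundant) and SLC4A1 (-0.41, and -1.35 without the library of size factor 0.620), 2 of 7, had summed levels of 182 and 486, and 0 of 8 markers of solid tissue had a row. The part of cell composition in the AP-1 differences was not tested.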

How the data were processed

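RNA from buffy coats was sequenced for 4 manatees of the red tide group and 7 of the control group. The authors trimmed reads with cutadapt, mapped them to the manatee assembly with Bowtie2 and compared the groups with DESeq; the submitters' processing notes also name FastQC, SAMtools and edgeR. Values deposited by the authors are a signal: counts were divided by a size factor per library and averaged, for all libraries and for each group. Its fold change, log2 fold change, p-value and adjusted p-value columns hold the authors' own comparison and were not used. The sources describe RNAlater for all samples and, for red tide samples, immediate freezing.

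The overall mean equalled the 4 and 7 parts of 11 of the group means in all 15298 rows (largest relative deviation 3.3e-09). Records were matched to RefSeq symbols of TriManLat1.0 without version numbers, which named 10080 rows. Whole reads were recovered where a single combination gave the mean to its 10 significant digits: 9632 of 9634 rows whose 4-library mean was at most 80, and 4458 of 4505 rows whose 7-library mean was at most 6. The recovery and the test were also run on simulated data, and the outcomes are not given here. A 7-library limit of 7 was added after the data had been seen, in order to take in BATF3, and is given as an alternative only. For single libraries of the table only size factors are known, the largest 4.66 times the smallest. The study's text also gives a mean and a range of reads per sample, which were not used here. That range is narrower than the span of the size factors, so these cannot be read as the number of sequenced reads. What else sets them apart was not tested.

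The exact permutation test of the difference of mean normalized counts was two-sided, taken as 2 times the smaller one-sided p, which gives larger values than counting absolute differences; this convention was settled while the data were in hand. P-values were adjusted by Benjamini-Hochberg over the 4440 rows with all 11 libraries. These rows were chosen by limits that differ between the groups, which neither the exact p nor the adjustment takes into account. With no values per library for the strongly expressed genes, group means were compared by fold (2-fold, no pseudocount) without a test. Labels give separate animals per sample. The members and lists were chosen with earlier results of these data known. Named were all members with a row; from each list the 2 highest and 2 lowest ratios among rows with a mean of at least 10, and IRF4, IRF8, JDP2 and SRF; and for each member with at least 50 recovered reads the 3 nearest rows. Most abundant markers, PRF1, GP9, gene neighbours and genes without a row were named beside these. A gene that this rule names is not reported here. Alternatives were pseudocounts, centring, fold, filters, matching, search limits, test statistics and leaving out libraries. Python 3.11.15, numpy 2.4.6, scipy 1.17.1 and matplotlib 3.10.9 were used.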

Additional observations from a re-analysis of the deposited data

Results flagged for a closer look

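Among 8 sets of single-library values of AP-1 genes examined, a library stood far from the others in 2 sets, both of FOSL1. In the group of 4, the library of size factor 0.372 had 16.1 normalized counts of FOSL1, from 6 reads. Its gap to the next library was 0.841 of the range. Chance gives such a gap in about 1 of 20 sets of normally distributed values. These values are few reads, and a read is worth most in this library, so that rate does not hold here. In the group of 7, the library of size factor 1.73 had 0.578 normalized counts, which is 1 read, while the other 6 libraries were at 0. With a single read in the group this gap is the whole range by construction, whichever library holds the read, and says nothing about that library.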

How the results depend on the processing

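No paired analysis was possible because the columns carry no replicate numbers. Of 253 alternative values, 226 stayed near the main value, 17 moved further and 10 lost a p under 0.05, all of these of FOSL1. For a ratio, near meant within 1 SD over the gene's own recovered libraries. Where none was recovered, and for medians, it meant within 0.67 on the log2 scale, the median of such SDs. For a count it meant within 1.5 times, and for a p on the same side of 0.05. A ratio within its SD may still cross 2-fold, as CREB1, MAPK3, PAX5, GP1BA and SLC4A1 did without 1 library of the group of 4. With records matched by version number only FOSL2 was found, so that 1 member was at least 2-fold higher in the 4-library mean in place of 7, and 0 in the 7-library mean in place of 1; fewer records are matched by construction. With 4-library means searched only up to 40, FOSB and ATF3 were not searched, and 0 members in place of 2 had all 4 libraries above the 7-library mean. The number of members whose lowest library exceeded 7 times the 7-library mean ran from 0 to 1 when 1 of the 4 libraries was left out; the 1 was FOSL1 without the library of size factor 0.620. The number of members with an exact permutation p under 0.05 (FOSL1 and ATF3) ran from 1 to 2 when 1 library of either group was left out, FOSL1 being lost; leaving out libraries of the group of 7 was added after seeing the data. The absolute-difference form of the exact test, also added then, gave p = 0.0242 for FOSL1 and 0.00303 for ATF3. The median log2 ratio of textbook AP-1 target genes was 2.96 among rows with a mean of at least 10, where fewer rows enter, and that of other immediate early genes was 1.57 with a pseudocount of 1. With that pseudocount the FOSL1 log2 ratio was 2.51 in place of 5.97. At a fold of 1.5 and of 4, 7 and 5 members were past it in the 4-library mean. The share of all rows was computed at 2-fold only, so these 2 counts have no share beside them. Without the library of size factor 1.73 FOSL1 had no read in the group of 7, and no ratio was computed. Leaving out libraries for list genes was also added after seeing the data. The number of read combinations that the printed digits allow limits the recovery to weakly expressed genes, so FOS, FOSL2, JUN and JUNB have no error.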
